A study of Mus musculus with 16 samples.

Results

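Homeobox and ZIC patterning factors are transcription factors that give regions of the embryonic brain their identity, and many stay on in subsets of adult neurons. The genes described here are the protein-coding entries of the deposited count table named Lhx, Dlx, Pax, Emx, Zic, Irx, Meis, Pbx or Hoxa to Hoxd with a number, plus the numbered sine oculis homeobox genes, Lmx1a, Lmx1b and Otx1. They were chosen by name and numbered 91 of the 40481 genes in the table. At least 10 counts in 7 or more of the 16 mice were required for a comparison of groups, and 35 of the 91 met this. The other 56, among them all 39 Hox genes, are given as counts.

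RNA from the brains of male C57BL mice (C57BL/6J in the study's text), bought at 18 months of age, was sequenced after poly-A selection to ask whether injected adropin alters the brain transcriptome. There were 2 groups: 8 mice had received the peptide Adropin(34-76) at 90 nmol/kg/d, as 1 intraperitoneal injection a day over 4 weeks, and 8 had received the saline diluent alone. All mice were fasted for 6 h before sampling, no genotype beyond the strain is given, and the labels give the tissue as brain with no region. Each mouse is called by its label's 2 numbers, such as 8_3, and the sources used here do not explain them. Library totals ran from 35026503 to 70314050 counts, and the members together took between 0.0673% and 0.0844% of the counts of a library.

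The families differ in where they act. LHX and LMX proteins carry LIM domains that bind the adaptor LDB1, sine oculis homeobox proteins work with EYA and DACH cofactors, and the TALE factors MEIS and PBX pair with HOX proteins on DNA. DLX factors specify inhibitory neurons of the ventral forebrain, EMX and OTX1 act in the developing cortex, IRX and PAX genes divide the neural tube into domains, ZIC zinc-finger proteins act in midline, cerebellar and thalamic development, and HOX genes pattern the hindbrain and spinal cord. In adult brain their levels differ between regions, and in bulk RNA fewer cells of a type and less RNA per cell cannot be told apart.

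Promoter sequence is shown for the members that the results turn on: Six3 and Lhx9, which had the largest fold changes, and Zic1 and Zic5, which were high together with their neighbours Zic4 and Zic2 in 1 mouse. The sequences are those of RefSeq on GRCm38.p6, read 5′ to 3′ toward the gene, and cover up to 250 bases before its start, less any base that the GENCODE annotation places in an exon of the gene. GENCODE also annotates transcripts of Six3 and Lhx9 that start further upstream, so these 2 windows lie inside the gene spans given with the values. The Six3 window lies under the antisense gene Gm28528. Capitals mark TGACAG (the core bound by MEIS and TGIF) and CCAAT (the CCAAT box), each on either strand, and no marked match overlaps another.
Six3, chr17:85620584-85620833, plus strand: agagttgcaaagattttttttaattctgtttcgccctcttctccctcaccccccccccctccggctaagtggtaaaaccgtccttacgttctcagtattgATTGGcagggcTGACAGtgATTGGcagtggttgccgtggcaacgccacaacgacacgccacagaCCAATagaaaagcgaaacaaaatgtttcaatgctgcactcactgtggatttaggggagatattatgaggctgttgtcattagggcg
Lhx9, chr1:138842458-138842694, minus strand: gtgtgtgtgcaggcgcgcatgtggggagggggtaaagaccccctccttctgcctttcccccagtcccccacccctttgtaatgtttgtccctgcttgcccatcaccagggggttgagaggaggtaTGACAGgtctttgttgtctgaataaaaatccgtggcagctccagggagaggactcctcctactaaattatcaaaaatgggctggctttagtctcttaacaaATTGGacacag
Zic1, chr9:91365811-91366018, minus strand: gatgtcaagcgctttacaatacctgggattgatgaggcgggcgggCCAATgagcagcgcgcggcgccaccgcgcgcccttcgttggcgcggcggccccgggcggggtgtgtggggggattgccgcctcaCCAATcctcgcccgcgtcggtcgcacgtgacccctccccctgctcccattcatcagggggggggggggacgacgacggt
Zic5, chr14:122465678-122465908, minus strand: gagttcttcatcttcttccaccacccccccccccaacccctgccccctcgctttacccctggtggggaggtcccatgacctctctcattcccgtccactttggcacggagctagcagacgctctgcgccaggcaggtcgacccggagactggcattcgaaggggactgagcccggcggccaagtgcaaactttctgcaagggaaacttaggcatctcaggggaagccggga
Six3 held 3 CCAAT matches and 1 TGACAG match, Lhx9 held 1 of each, Zic1 held 2 CCAAT matches, and Zic5 held neither motif. Across 32817 promoter windows of 250 bases, 33.8% held CCAAT and 15.9% held TGACAG. Among 68 windows of the 58 members with an entry, 33 (48.5%) held CCAAT and 11 (16.2%) held TGACAG. The homeodomain core TAATTA was in 2 member windows (2.94%, against 4.85% of all windows) and the PBX-HOX element TGATTNAT in 3 (4.41%, against 2.83%). The member windows were richer in GC, with a median of 60.8% against 52.4% over all windows.

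Levels of the 35 tested members, in CPM (counts scaled to a common library size with TMM factors) per kilobase of exon, spanned 0.0741 to 21.4. Lhx2, a LIM-homeobox factor of the cortex, was highest at 21.8 ± 2.18 in the adropin group and 21.1 ± 2.86 in the saline group (SD, n = 8 each). Other high levels were those of Pbx2 at 15.4 ± 1.19 and 15.4 ± 0.960 CPM per kilobase, Emx1 at 14.8 ± 2.24 and 13.4 ± 1.28, and Meis3 at 11.8 ± 0.811 and 12.2 ± 1.41. Meis2 was at 7.56 ± 0.495 and 7.94 ± 1.06. Among these 5, neighbours in the order differed by less than the sum of their SDs, except Lhx2 and Pbx2, and Meis3 and Meis2, which differed by more in both groups. Six3, Irx3 and Lhx9 stood near the bottom of the order, at 0.262, 0.176 and 0.164 CPM per kilobase over all mice. The members varied more between mice than genes in general: their median within-group SD was 0.36 on the log2 CPM scale against 0.23 over all genes tested, and 13 of 35 (37.1%) had an SD above 0.5, against 2934 of all 18333 genes.

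In each of the 35 tested members the groups overlapped, and the share of all genes tested with overlapping groups was not counted. Under the study's cut-off, a fold change above 1.5 with an unadjusted p below 0.05, 3 of the 35 members were lower in adropin-treated mice (Six3, Irx3 and Lhx9) and 0 were higher. Over all 18333 genes tested, 151 (0.824%) were lower and 64 (0.349%) were higher by the same cut-off. At an unadjusted p below 0.05 with no fold requirement, 6 members were lower and 0 higher, against 2.47% and 1.88% of all genes. No gene passed an adjusted p of 0.05 in edgeR's quasi-likelihood test (0 of 18333 genes, 0%, with 797 genes at an unadjusted p below 0.05, and 2 genes adjusted in DESeq2, neither of them a member). Of the edgeR alternatives, 2 gave adjusted calls, none a member: 2 genes with the second label number as a replicate block and 3 genes without adropin mouse 5_5. The smallest adjusted p of a member was 0.894, and 0.542 to 0.995 over the alternatives. The log2 fold change was below 0 for 25 of the 35 members (71.4%), against 9524 of all 18333 genes, and its median was -0.12 against -0.01. The median of the members was -0.04 without saline mouse 8_3 (65.7% below 0), and -0.07 without saline mouse 2_3 or adropin mouse 2_4 (71.4% and 60.0% below 0). It was furthest from 0 without adropin mouse 4_3, at -0.19 (74.3% below 0).

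**Figure D1:**
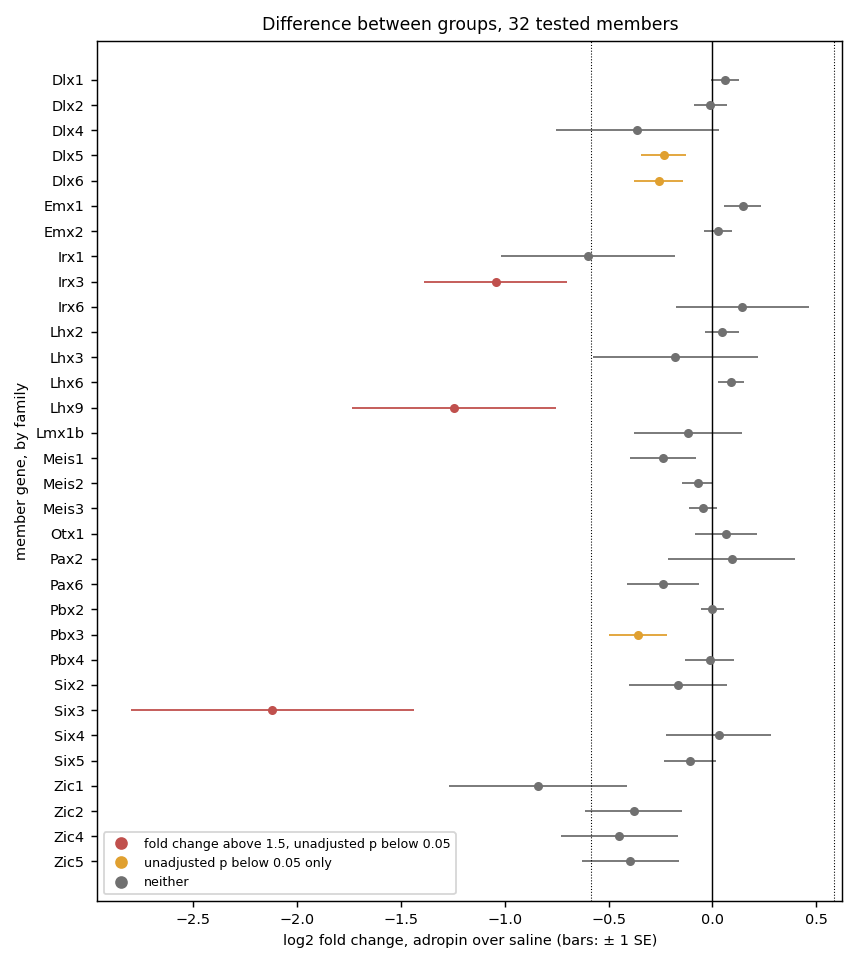
Log2 fold change of 32 tested members, adropin over saline, with bars of 1 SE, grouped by family on the vertical axis; dotted lines mark a fold change of 1.5. Six3, Lhx9 and Irx3 lie beyond the left line in red, Pbx3, Dlx5 and Dlx6 in orange have an unadjusted p below 0.05 with a smaller change, and the grey points of Irx1 and Zic1 also lie past the left line without passing the test.

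Among the sine oculis homeobox genes, Six3, a forebrain and eye-field factor on chromosome 17 (85613608 to 85629302, GRCm38), had the largest difference of any tested member. Its level in the adropin group was lowest at 0.0731 CPM, with a median of 0.417 and a highest value of 1.55 in mouse 7_4. In the saline group the lowest was 0.101, the median 1.74 and the highest 8.55 in mouse 5_3. All 8 adropin mice lay below the saline median, but the groups overlapped, with saline mice 8_1, 8_3, 6_2 and 6_1 (0.101, 0.368, 1.09 and 1.42) inside the adropin range. The means were 0.547 ± 0.528 and 2.31 ± 2.67 CPM (SD, n = 8), and the log2 fold change was -2.12 (SE 0.68, edgeR adjusted p = 0.894, two-sided exact permutation p = 0.0497). Without saline mouse 5_3, the fold change was smaller, at -1.40 on the log2 scale (edgeR, unadjusted p = 0.0329, 7 against 8 mice). Counts of Six3 in single mice were as few as 4, only 12 of 16 mice had 10 or more, and Six3os1 and Gm28528 overlap its exons on the other strand, so that without a stated strand of counting their reads cannot be told apart.

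Six2, Six4 and Six5 did not pass the test. Six5, which had the highest level per kilobase of these, was at 3.41 ± 0.579 CPM in adropin and 3.66 ± 0.666 in saline mice (log2 fold change -0.11, SE 0.13). Six2, next to Six3 on chromosome 17 and 54974 bases from it, was at 1.25 ± 0.480 and 1.41 ± 0.403 CPM. Six4 had a log2 fold change of 0.03 (SE 0.25), and -0.13 without adropin mouse 1_3. Six6 had 4 counts in all 16 mice together. Of 6 listed partners of these proteins (Eya1 to Eya4, Dach1 and Dach2), all tested, 0 passed the cut-off in either direction, and the median log2 fold change was -0.05. Dach2, named here after its value was seen, had a log2 fold change of -0.56 (SE 0.22, edgeR adjusted p = 0.894) and passed the cut-off without saline mouse 8_3 (-0.61).

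Of the LIM-homeobox genes, Lhx9, a factor of diencephalic and pretectal neurons on chromosome 1 (138825186 to 138848577), was lower in the adropin group. Adropin mice ran from 0.401 CPM through a median of 0.501 to 2.68 in mouse 4_3. Saline mice ran from 0.650 through 1.79 to 5.84 in mouse 6_1. Of the 8 adropin mice, 7 lay below the saline median and 5 lay below the lowest saline mouse, while mice 4_3, 1_3 (1.60) and 2_1 (0.851) lay within the saline range. The log2 fold change was -1.24 (SE 0.49, edgeR adjusted p = 0.894, two-sided exact permutation p = 0.0399). Without saline mouse 6_1 it was -0.85 and no longer passed the cut-off (edgeR, unadjusted p = 0.0799, 7 against 8 mice). Blocked on the first label number, it was -2.18 and passed. That estimate rests only on first numbers found in both groups, which leaves out mice 6_1, 4_3 and 1_3. The mice compared were 2_1, 2_4, 5_5 and 7_4 with adropin and 2_3, 5_3, 5_4 and 7_1 with saline. Lhx2 (log2 fold change 0.05, SE 0.08), Lhx6, which marks inhibitory neurons from the medial ganglionic eminence (0.09, SE 0.06), and Lhx3 (-0.18, SE 0.40) did not pass the test, nor did Lmx1b, a factor of serotonergic neurons (-0.12, SE 0.26). The signs of Lhx3 and Lmx1b turned when 1 mouse was left out (0.02 without saline mouse 7_1 and 0.02 without adropin mouse 2_4). All 9 listed partners of LIM domains (LDB, LMO and SSBP genes) were tested and 0 passed the cut-off, with log2 fold changes below 0 for 8 of them and a median of -0.06.

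In the Iroquois family, Irx3 on chromosome 8 (91798525 to 91802067) was lower with adropin. The adropin mice lay close together, from 0.131 CPM through a median of 0.336 to 0.458. The saline mice ran from 0.174 through 0.642 to 1.23 in mouse 2_3. All 8 adropin mice lay below the saline median and 6 of the 8 saline mice lay above the highest adropin mouse. Saline mice 5_3 and 5_4, at 0.227 and 0.174 CPM, lay inside the adropin range. The log2 fold change was -1.04 (SE 0.35, edgeR adjusted p = 0.894, two-sided exact permutation p = 0.0488). Blocked on the first label number, it was -0.95 and lost the cut-off (edgeR, unadjusted p = 0.0869). That value is informed only by mice whose first number is found in both groups. Only 14 mice had 10 or more counts, and the antisense gene Irx3os overlaps its exons.

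Irx1, the Iroquois gene with the highest level per kilobase, had a saline range of 0.202 to 1.75 CPM (median 0.555) and an adropin range of 0.237 to 0.993 (median 0.587). Saline mice 2_3, 8_3 and 6_1 (1.75, 1.52 and 1.36 CPM) were the only mice above the adropin group, and the log2 fold change of -0.60 (SE 0.42) did not pass the test. It was -0.35 without mouse 2_3 and -1.20 blocked on the first label number, and neither passed. Mice 2_3 and 6_1 were also highest for Irx3 and for Lhx9. Irx6 was at 0.265 ± 0.129 and 0.234 ± 0.0877 CPM.

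**Figure D2:**
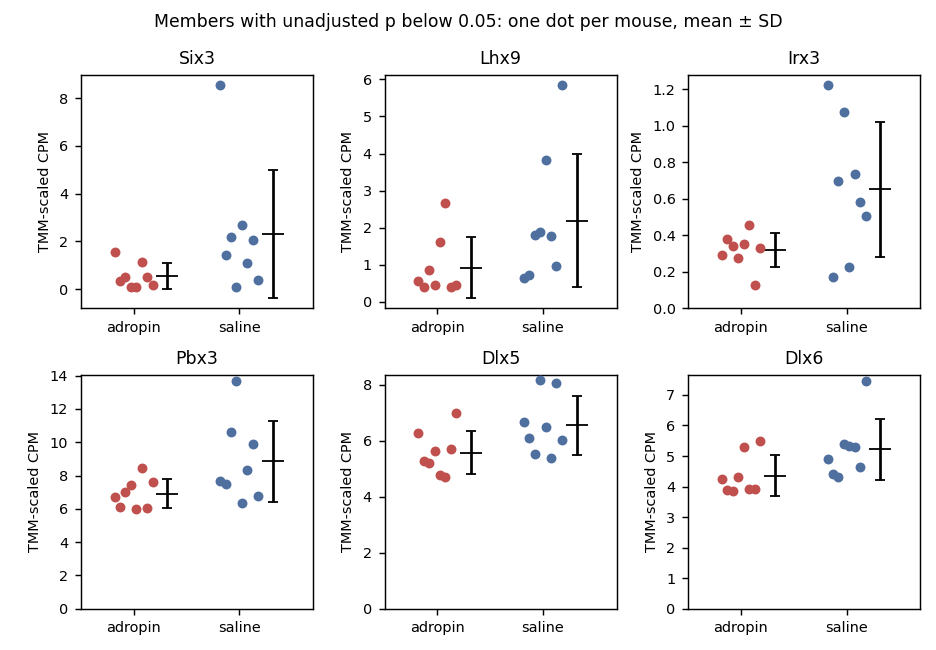
Level of the 6 members with an unadjusted p below 0.05, in TMM-scaled CPM on the vertical axis, with 1 dot per mouse and black bars for the mean ± SD (8 mice a group). Saline mouse 5_3 stands at the top for Six3 (8.55) and Pbx3 (13.7), saline mouse 6_1 for Lhx9 (5.84), and in every panel the groups overlap.

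Among the TALE factors, Pbx3 had a smaller difference. Adropin mice ran from 5.99 CPM through a median of 6.86 to 8.44, and saline mice from 6.37 through 8.00 to 13.7 in mouse 5_3. Saline mice 5_3, 2_3 and 7_1 lay above every adropin mouse. The log2 fold change of -0.36 (SE 0.14, edgeR adjusted p = 0.894, two-sided exact permutation p = 0.0375) was below the fold cut-off, and was -0.23 without mouse 5_3 (edgeR, unadjusted p = 0.0611, 7 against 8 mice). Blocked on the first label number, it was -0.66 and passed the cut-off. Pbx2 and Pbx4 had log2 fold changes within 0.02 of 0. Exons of Pbx2 overlap those of Gpsm3 on the same strand.

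Meis2, a factor of striatal and cortical neurons, was at 91.0 ± 5.96 CPM with adropin and 95.7 ± 12.7 with saline, and Meis3 at 37.5 ± 2.57 and 38.7 ± 4.48. Meis1 had an adropin range of 2.73 to 3.61 CPM and a saline range of 2.44 to 6.24, the highest in mouse 8_3, and its log2 fold change moved from -0.24 (SE 0.16) to -0.09 without that mouse. Neither value passed the test. Of 5 listed partners of TALE factors, 0 passed the cut-off, and their median log2 fold change was -0.11.

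Dlx5 and Dlx6, neighbours on chromosome 6 that are 9236 bases apart and act in inhibitory neurons of the forebrain, each had a small difference. Dlx5 ran from 4.69 CPM through 5.47 to 6.98 in the adropin group and from 5.39 through 6.31 to 8.19 in the saline group. Its log2 fold change was -0.24 (SE 0.11, edgeR adjusted p = 0.894, two-sided exact permutation p = 0.0463). Dlx6 ran from 3.84 through 4.07 to 5.51 with adropin and from 4.30 through 5.10 to 7.47 with saline, and 6 of the 8 adropin mice lay below every saline mouse. Its log2 fold change was -0.26 (SE 0.12, edgeR adjusted p = 0.894, two-sided exact permutation p = 0.0416). Neither kept an unadjusted p below 0.05 in every run: Dlx5 was at -0.18 without saline mouse 5_3 (edgeR, unadjusted p = 0.120, 7 against 8 mice), and Dlx6 was at -0.17 without saline mouse 5_4 (edgeR, unadjusted p = 0.1155, 7 against 8 mice). Blocked on the first label number, Dlx5 was at -0.35 (edgeR, unadjusted p = 0.0892) and Dlx6 at -0.42 (edgeR, unadjusted p = 0.0453), and on the second at -0.21 and -0.27 (edgeR, unadjusted p = 0.121 and 0.0510). The mice that were high for Dlx5 (7_1 and 5_3) were not those high for Dlx6 (5_4), and across the 16 mice, with group means subtracted, the pair gave Pearson's r = -0.224 (permutation p = 0.410, adjusted over 22 relations p = 0.510; Spearman's rho -0.282, permutation p = 0.289; r = -0.0578 without mice 2_4 and 7_1). Dlx6 overlaps the exons of Dlx6os2 on the other strand.

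Dlx1, the DLX gene with the highest level per kilobase, was at 38.3 ± 3.62 CPM in adropin and 36.8 ± 3.05 in saline mice, and Dlx2 ran from 6.83 to 8.54 CPM and from 6.95 to 9.62. Dlx4 had a log2 fold change of -0.36 with an SE of 0.39, and of 0.01 without saline mouse 8_3. Emx1, a marker of cortical excitatory neurons, was at 32.4 ± 4.90 CPM with adropin and 29.3 ± 2.80 with saline (log2 fold change 0.15, SE 0.09, edgeR adjusted p = 0.894). Emx2 (0.03, SE 0.07) and Otx1, a factor of deep-layer cortical neurons (0.06, SE 0.15), did not pass the test.

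The log2 fold changes of Zic1, Zic2, Zic4 and Zic5 were below 0, and none passed the test. For Zic1, a cerebellar and thalamic factor on chromosome 9 (91358058 to 91365810), adropin mice ran from 8.72 CPM through 12.5 to 14.1, and saline mice from 9.61 through 11.3 to 90.7. The highest value was that of saline mouse 8_3, and the next saline mouse was at 14.7. The median was lower in the saline group although the mean was higher there (21.2 ± 28.1 against 11.9 ± 2.11 CPM), and the log2 fold change was -0.84 (SE 0.43, edgeR adjusted p = 0.894, two-sided exact permutation p = 0.693). Without mouse 8_3 it was 0.07. Mouse 8_3 was also highest for Zic2 (45.3 CPM, with 9.95 to 19.5 in the other mice), Zic4 (12.5, with 2.24 to 5.96) and Zic5 (11.3, with 2.58 to 5.01). Log2 fold changes of Zic2, Zic4 and Zic5 were -0.38 (SE 0.23), -0.45 (SE 0.28) and -0.40 (SE 0.23), and were -0.06, -0.10 and -0.09 without mouse 8_3. Exons of Zic1 and Zic4 overlap on opposite strands.

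Mouse 8_3 was the highest of all 16 mice for Dlx4, Meis1, Pax2 and Pax6 as well. Pax6, a factor of cerebellar granule cells and of adult-born neurons, ran from 10.0 CPM through 11.9 to 15.2 in adropin mice and from 9.27 through 12.6 to 28.3 in saline mice. Its log2 fold change of -0.24 (SE 0.17) was -0.01 without mouse 8_3. That of Pax2 was 0.09 (SE 0.31), and 0.49 without mouse 8_3 (edgeR, unadjusted p = 0.0443, 7 against 8 mice), below the fold cut-off. In the same mouse, 5 cerebellum markers (Pcp2, Car8, Cbln3, Gabra6 and Barhl1) summed to 282.6 CPM, with 5.24 to 10.8 in the other 15 mice, and 9 choroid plexus markers, of whose sum Ttr made 92.3%, summed to 2485 CPM, with 12.2 to 331.6 in the others. All 3 tested cerebellum markers and 8 of 9 choroid plexus markers were lower in the adropin group by the cut-off, and without mouse 8_3 the counts were 0 and 2. Among the other regional lists, 2 of 5 tested hypothalamus markers (Oxt at -1.67 and Avp at -1.13 on the log2 scale) and 1 of 5 tested hippocampus markers (Lct at -1.23) were lower by the cut-off, all of them highest in saline mouse 5_3, the mouse with the highest Six3. All 5 of each list had log2 fold changes below 0, as had the 3 tested cholinergic markers (median -0.72), of which 0 passed the cut-off with all mice and 2 without mouse 8_3. Without that mouse the counts were 1 for hypothalamus and 2 for hippocampus markers. The 7 cortex markers leaned the other way, with a median of 0.22 and 2 of them below 0 (Neurod6 at -0.16 and Fezf2 at -0.03). At an unadjusted p below 0.05, 3 of them were higher (Cux2 at 0.31, Rorb at 0.35 and Tbr1 at 0.22), below the fold cut-off. Without mouse 8_3, Rorb and Tbr1 were not (edgeR, unadjusted p = 0.0535 and 0.0772), and Neurod6 was lower at -0.18 (edgeR, unadjusted p = 0.0457). The part of these tissues and regions in the values of Zic1, Pax6 and the other members was not tested. Without mouse 8_3 the log2 fold changes of Six3, Lhx9 and Irx3 were -2.29, -1.38 and -1.02, and each passed the cut-off.

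**Figure D3:**
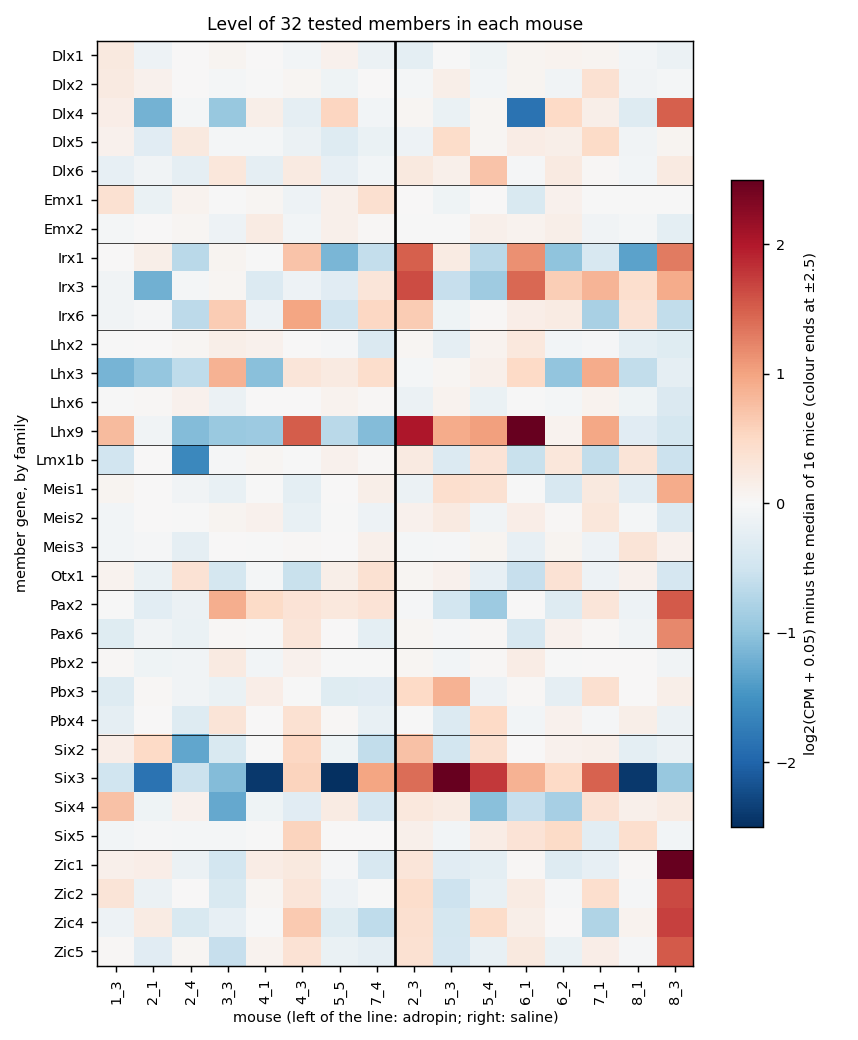
Level of 32 tested members (rows, by family) in each of 16 mice (columns, adropin left of the line and saline right), as log2(CPM + 0.05) minus the median of the 16 mice, in red above it and blue below it. Zic1, Zic2, Zic4, Zic5, Pax2 and Pax6 are red in the column of saline mouse 8_3, the rows of Six3 and Lhx9 vary most, and rows such as Lhx2, Pbx2 and Emx2 are nearly flat.

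Of the ZIC pairs, 3 were compared across the mice. Zic2 and Zic5, which lie 9757 bases apart on chromosome 14 and point away from each other, gave r = 0.968 with group means subtracted (rho 0.929; permutation p = 1e-05 for each, the smallest that 100000 permutations can give, adjusted p = 0.00022), and r = 0.902 without mouse 8_3. Without the 2 mice farthest from the median of Zic2, which were 8_3 and 5_3, r was 0.886. Zic1 and Zic4 gave r = 0.825 (permutation p = 0.00034, adjusted p = 0.00231; rho 0.674, permutation p = 0.00493, adjusted p = 0.0271), falling to 0.609 without mouse 8_3 (adjusted p = 0.0847 by permutation) and to 0.546 without mice 4_3 and 8_3. Zic1 and Zic2, on different chromosomes, gave r = 0.885 (permutation p = 0.00021, adjusted p = 0.00231; rho 0.715, permutation p = 0.00251, adjusted p = 0.0248), with 0.589 without mouse 8_3 (adjusted p = 0.0847 by permutation) and 0.543 without mice 4_3 and 8_3. Zic1 against the cerebellum markers gave r = 0.945 (permutation p = 0.00086, adjusted p = 0.00378; rho 0.609, permutation p = 0.0140, adjusted p = 0.0440), and this rested on mouse 8_3, since r was 0.139 without it and 0.163 without mice 4_3 and 8_3.

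**Figure D4:**
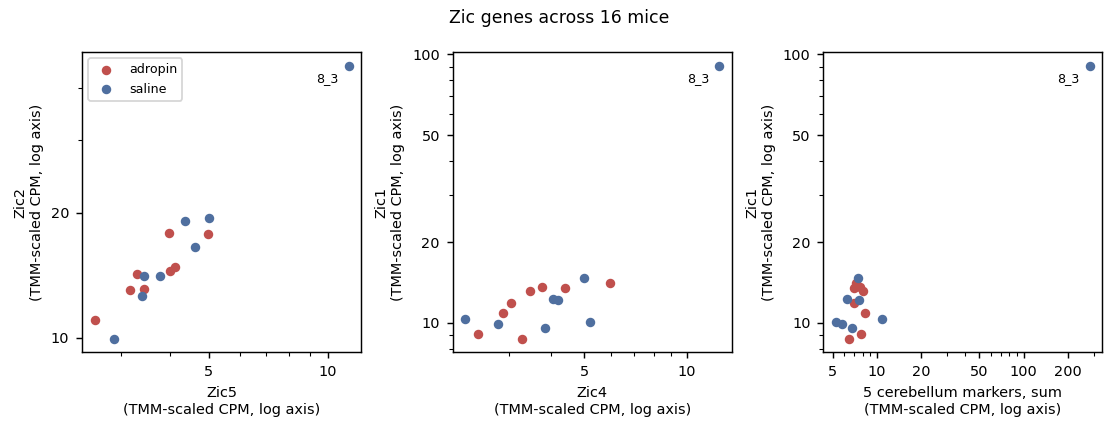
Zic2 against Zic5, Zic1 against Zic4, and Zic1 against the sum of 5 cerebellum markers in 16 mice, in TMM-scaled CPM on log axes, with adropin mice in red and saline mice in blue. Saline mouse 8_3 sits apart in all panels (Zic1 at 90.7 CPM), while Zic2 and Zic5 also rise together among the other 15 mice.

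Relations with regional markers were computed for other members too. Emx1 went with 7 cortex markers (r = 0.709, permutation p = 0.00234, adjusted p = 0.00858; rho 0.615, permutation p = 0.0132, adjusted p = 0.0440; r = 0.705 without mice 2_1 and 6_1). Otx1 did so as well (r = 0.781, permutation p = 0.00042, adjusted p = 0.00231; rho 0.700, permutation p = 0.00338, adjusted p = 0.0248; r = 0.625 without mice 4_3 and 6_1). These relations held at an adjusted p below 0.05 without mouse 8_3 (r = 0.708 and 0.867). Six3 gave r = 0.595 with striatum markers (permutation p = 0.0161, adjusted p = 0.0429; rho 0.415, permutation p = 0.108, adjusted p = 0.238) and r = 0.597 with cholinergic markers (permutation p = 0.0139, adjusted p = 0.0429; rho 0.376, permutation p = 0.151, adjusted p = 0.291). Without mice 5_3 and 8_1 these fell to 0.374 and 0.307, values that were not tested. In mouse 5_3 the 4 cholinergic markers summed to 9.02 CPM with 0.938 to 2.31 in the others. Lhx9 gave r = 0.583 with the sum of 3 habenula markers, 96.1% of which was Nwd2 (permutation p = 0.0176, adjusted p = 0.0429; rho 0.615, permutation p = 0.0136, adjusted p = 0.0440; r = 0.454 without mice 4_3 and 6_1), and r = -0.0694 with 7 thalamus markers (permutation p = 0.798, adjusted p = 0.836; rho -0.238, permutation p = 0.373; r = 0.232 without mice 4_3 and 6_1). In all, 22 relations were computed and 9 had an adjusted p below 0.05. Mouse 6_1 had the highest sum of the 3, 57.5 CPM with 30.1 to 54.8 in the others, and was highest for Nwd2 (56.1 CPM) but not for Gpr151 or Pou4f1, which were highest in 7_1 and 2_3; the part of these regions in the differences of Six3 and Lhx9 was not tested.

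The 13 relations that did not pass included Dlx1 with Dlx2, which lie 9426 bases apart (r = 0.364, permutation p = 0.168, adjusted p = 0.253; rho 0.176, permutation p = 0.510; r = 0.108 without mice 1_3 and 2_3), Lhx2 with Lhx9 (r = 0.537, permutation p = 0.0314, adjusted p = 0.0691; rho 0.5265, permutation p = 0.0393; r = 0.294 without mice 6_1 and 7_4) and Meis2 with striatum markers (r = 0.141, permutation p = 0.600, adjusted p = 0.660; rho 0.0353, permutation p = 0.901; r = 0.117 without mice 7_1 and 8_3).

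Of the 56 members too sparse to compare, 15 reached 10 counts in at least 1 mouse and 9 had no count in any. The 39 Hox genes together had 368 counts over 16 mice, from 11 to 34 a mouse with adropin (median 19) and from 9 to 46 with saline (median 26). Hoxc5 had the highest value of any Hox gene, 27 counts in saline mouse 5_3, and 9 Hox genes had none. A count of 0 in a library allows up to 3 counts, and covers counting error only. Among the 17 sparse members outside the Hox families, the highest counts of several genes sat in 1 or 2 mice. Mouse 8_3 held 231 of the 315 counts of Lhx1, a factor of Purkinje cells, along with 99 of 193 of Lhx5, 41 of 62 of Lmx1a and 47 of 77 of Pax3. Lhx8, which specifies forebrain cholinergic neurons, had 68 of its 101 counts in saline mouse 5_3, the mouse with the highest Six3. Pax7, a factor of the dorsal midbrain, had 87 counts in saline mouse 2_3 and 48 in adropin mouse 4_3, and no more than 4 in any other mouse. Irx2 had 76 counts in mouse 2_3 and 38 in 8_3. These genes were named after their counts were seen.

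**Figure D5:**
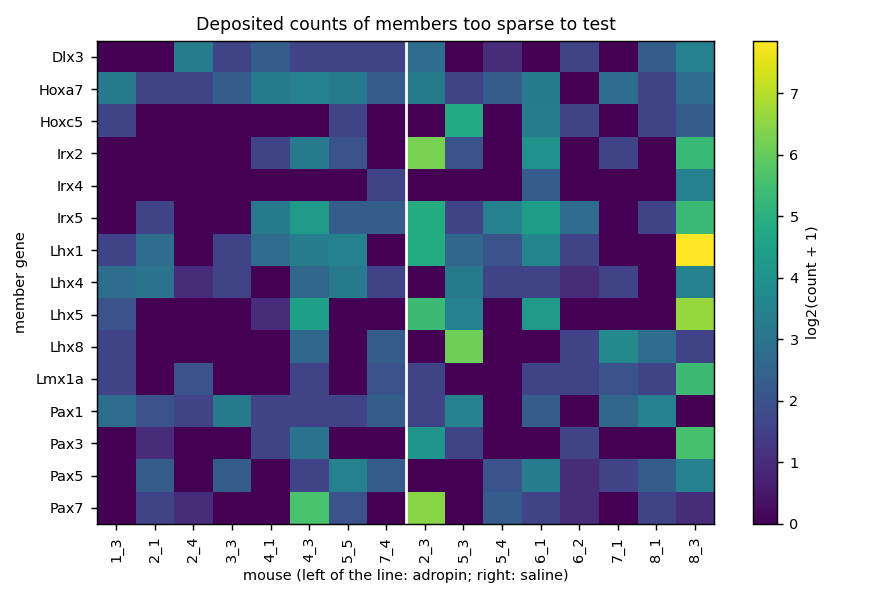
Deposited counts of the 15 sparse members that reached 10 counts in at least 1 mouse, coloured as log2(count + 1), with mice in columns (adropin left of the line, saline right). Among the brightest cells are Lhx1 in saline mouse 8_3 (231 counts), Lhx8 in saline mouse 5_3 (68), and Pax7 in saline mouse 2_3 (87) and adropin mouse 4_3 (48).

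A list of 46 other regional transcription factors, 13 of which also serve as regional markers here, had 26 members tested, of which 3 were lower by the cut-off and 0 higher, against 0.824% and 0.349% of all genes. At an unadjusted p below 0.05 alone 3 were lower and 2 higher (Cux2 and Tbr1). The log2 fold change was below 0 for 17 of the 26, with a median of -0.07. The 3 lower genes were En2, a midbrain and cerebellar factor (log2 fold change -1.96, SE 0.54), Barhl2 (-2.41, SE 0.77) and Otx2, which the choroid plexus expresses (-2.30, SE 0.997), each with an adjusted p of 0.894 in edgeR. All were highest in mouse 8_3, at 10.9, 8.28 and 9.01 CPM. Without that mouse En2 still passed the cut-off, with a log2 fold change of -0.83, while Barhl2 (-1.18) and Otx2 (-0.82) did not.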

How the data were processed

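Libraries were poly-A selected. Reads were mapped by the authors with STAR to Ensembl release 76 (GRCm38), and featureCounts counts of reads with 1 alignment and 1 gene were deposited, not normalized. Whether strand was used is not given in the sources used here. Of values from 1 to 10, 70.6% were even, and whether the mates of a pair were counted as 1 is not given either, so that a printed count, the minimum of 10 and the limit of 3 may stand for fewer fragments. The deposited CPM were not used. Of 40757 entries, 276 repeats were dropped, and 355 ribosomal RNA genes were left out of the tests.

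Genes with at least 10 counts in 7 or more mice (18333) were compared with edgeR 4.0.16 (R 4.3.3), by its quasi-likelihood test with TMM factors over all genes and Benjamini-Hochberg adjustment. Single members were also compared by two-sided exact permutation of log2 CPM (prior count 2) over 12870 divisions of the mice, and relations with 100000 permutations. Whether mice of a group differ in more than sampling, such as by litter, is not stated. The edgeR test was also run on simulated counts, and those results are not given here. Coordinates and exon lengths are from GENCODE on GRCm38.

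The members and lists were chosen with earlier results of these data known. Text names each tested member with an unadjusted p below 0.05, the highest per kilobase and the largest change of each family, members in relations, and listed genes past the cut-off. Results of some single members are not reported here. Alternatives were DESeq2 1.42.0, limma-voom 3.58.1, other filters and scalings, label-number blocks and leaving out each mouse.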

Additional observations from a re-analysis of the deposited data

Results flagged for a closer look

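Dixon's test at the 95% level was run on CPM, not log2 CPM, and skewed values can raise its flags. Chance would give about 3.2 of 64 if the values of a group were normally distributed. Single mice far from the other 7 of their group were found in 14 of 64 comparisons, 2 groups for each of 32 tested members. Saline mouse 8_3 accounted for 7 of them, as the highest of its group: Zic1 at 90.7 CPM, Zic2 at 45.3, Pax6 at 28.3, Zic4 at 12.5, Zic5 at 11.3, Pax2 at 1.95 and Dlx4 at 1.11 (the nearest saline mice were at 14.7, 19.5, 13.2, 5.21, 5.01, 0.808 and 0.531). Saline mouse 5_3 was far above its group for Six3 at 8.55 CPM, with the next saline mouse at 2.69. Saline mouse 5_4 was far above for Dlx6 at 7.47 CPM. Saline mouse 7_1 was at 9.62 CPM for Dlx2, and saline mouse 6_1 at 63.6 for Pbx2. In the adropin group, mouse 4_3 was high for Six5 at 4.83 CPM, mouse 7_4 was low for Lhx2 at 74.3, and mouse 3_3 was low for Lhx6 at 23.1. These genes come from the same libraries, so the flags are not independent of each other.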

How the results depend on the processing

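With more than 1 CPM required in at least 7 mice, 2 of 27 members were lower (Irx3 was not tested). Over all 14949 genes tested there, 46 (0.308%) were lower and 17 higher. With no filter, 16 of 82 members were lower by the cut-off and 0 higher, against 784 lower and 569 higher over 30210 genes, and 12 of the 13 added members were among the 56 too sparse for the test (the other was Zic1). Library size alone, DESeq2 size factors, DESeq2, limma-voom and keeping ribosomal RNA genes each left 3 members lower and 0 higher. Over all genes, these settings gave 120 (limma-voom) to 170 (library size alone) lower, and 56 (library size alone) to 77 (limma-voom) higher. Leaving out 1 mouse at a time gave 2 to 4 members lower and 0 higher in every run, and over all genes 115 to 193 lower and 53 to 100 higher (193 without adropin mouse 4_3 and 100 without saline mouse 5_3). Lhx9 was lost without saline mouse 6_1, and Zic1 was gained without any 1 of saline mice 5_3, 5_4, 6_2 or 7_1. Of the relations, 3 of 9 kept an adjusted p below 0.05 without mouse 8_3 (Zic2 with Zic5, and Emx1 and Otx1 with cortex markers), and all 9 did with library size alone.

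The label numbers were not taken to pair the mice: mice of the 2 groups that share a first number had correlations of their deviations from -0.144 to 0.0996, and those that share a second number from -0.358 to 0.211. With the first number as a replicate block, 3 members were lower (Six3, Lhx9 and Pbx3, without Irx3), and 123 genes were lower and 79 higher. In that fit, mice whose first number is found in 1 group only do not inform the group difference. These are adropin mice 1_3, 3_3, 4_1 and 4_3 and saline mice 6_1, 6_2, 8_1 and 8_3. With the second number as a block, 3 members were lower, and 156 genes were lower and 55 higher. There, adropin mouse 5_5 and saline mouse 6_2 do not inform the group difference. Counts were too few to compare 56 members, and Irx3 had 341 counts over all 16 mice.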
